A study of Arabidopsis thaliana with 62 samples.

Results

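The comparison set the sigma factor mutant sig2-2 against chl27 and chlm, a pair of mutants in chlorophyll synthesis, with wild type kept out of the contrast. It used 23 of the 62 samples of the series, namely 4 membrane and 4 stroma libraries of sig2-2, 4 and 4 of chl27, and 4 and 3 of chlm, chosen by their titles. All 3 lines are listed in the Col0 ecotype of Arabidopsis thaliana, as 4-day-old seedlings grown on agar plates in continuous light, with no treatment. SOLINA, the assay, sequences plastid DNA from crosslinked material after its separation into a membrane and a stroma fraction. Per the labels' protocols, 50 seedlings were fixed in 4% formaldehyde for 4 h before the chloroplasts were released by grinding. The library of chlm stroma replicate 1 was not used, because its column holds a running position. Within replicate number 1, differences of sig2-2 in stroma and in the ratio therefore stand against chl27 alone. Groups follow the titles, since the genotype field of these libraries reads wild type throughout. The labels name no second allele or complemented line, so each mutant is 1 line. The mutated genes are nuclear, so the files of plastid coverage hold no check of the genotype.

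Plastid genes are read by a bacterial-type polymerase, encoded in the plastid, which needs nuclear-encoded sigma factors to find its promoters, and by a phage-type polymerase from the nucleus. Sigma factor 2 is known for directing the bacterial-type enzyme to several tRNA genes, among them trnE, whose product is both the tRNA for glutamate and the substrate from which chlorophyll precursors are made. Plants without it are therefore pale. CHLM is the methyltransferase that acts on Mg-protoporphyrin IX, and CHL27 is a subunit of the cyclase that follows it, so mutants in either are short of chlorophyll with no mutation named in a sigma factor. The comparison asks where plastid DNA of sig2-2 sits in the fractions beyond what pale seedlings of the other kind show.

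Every value is coverage of a gene or of a 500-bp window divided by the mean of its library, called relative coverage here. Mean depth ran from 299 to 4598 per base over the 23 libraries, with 299 to 3825 in membrane and 1731 to 4598 in stroma, and the shallowest window of any library still had 113. No pair of libraries was identical. Libraries with the same replicate number mostly deviated together: the correlation of their deviations from the group means was 0.27 to 0.93 between the membrane and stroma libraries of 1 genotype. Between genotypes it was 0.03 to 0.97 in membrane (median 0.73) and 0.33 to 0.98 in stroma (median 0.68). Libraries of different numbers ranged from -0.97 to 0.86, with a median of -0.20. The numbers differed mainly along a single pattern. A direction taken from the Col0 libraries of this experiment alone carried 80.6% of the spread within the 6 groups, and a score along it followed coverage of the rRNA operon with r = 0.95 over the 23 libraries, which share that operon in both measures. Number 2 had the highest scores and number 4 mostly the lowest. In stroma, sig2-2 scored above each other mutant present in numbers 1, 2 and 3, with 0.17 against -0.07, 0.52 against a mean of 0.26 and 0.08 against -0.10, and below their mean in number 4, with -0.14 against -0.07. This score moves with most results below, and the stroma calls of named genes that were lost with it as a covariate are given beside them. That covariate, and leaving out number 2 or number 4, were chosen after seeing the data. The score is computed from each library's own coverage, so it holds part of the differences it adjusts for. Calls kept or lost with it describe overlap with the score and do not sort the differences by cause.

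**Figure D1:**
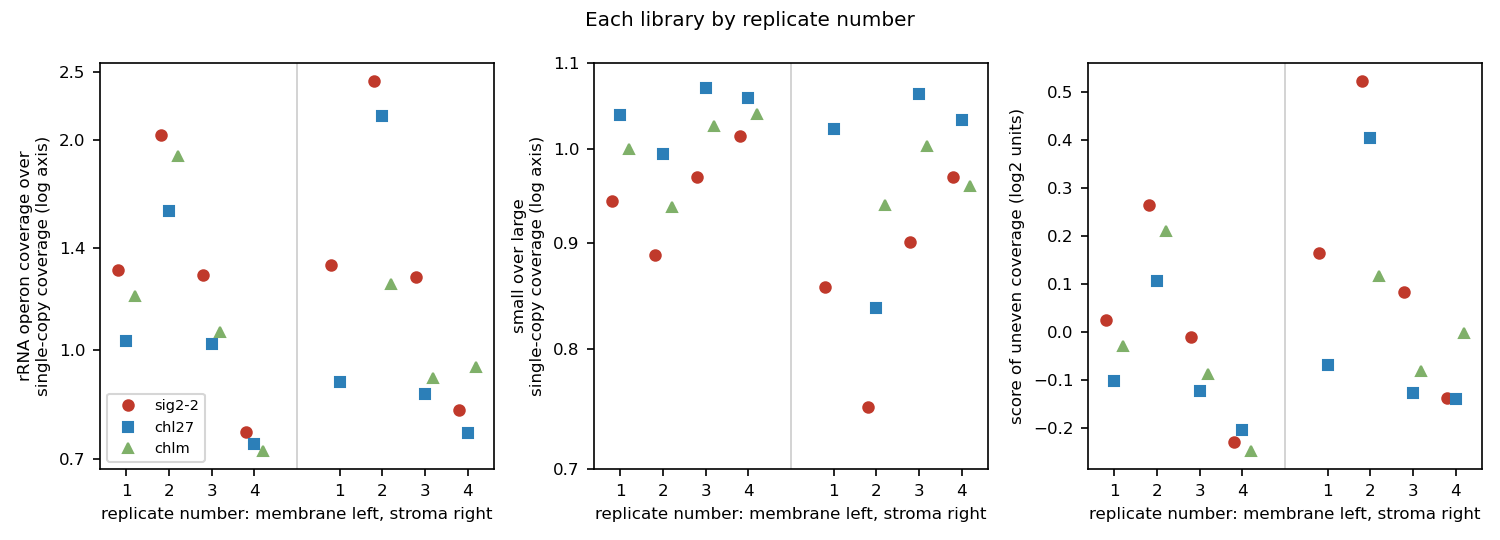
Each of the 23 libraries by replicate number, membrane on the left and stroma on the right of each panel, with the rRNA operon and the small single-copy region on log axes and the score of uneven coverage in log2 units. Libraries of number 2 reach operon values of 2.03 in membrane and 2.43 in stroma for sig2-2, and those of number 4 lie between 0.719 and 0.946 in all 3 mutants.

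In the membrane fraction no gene and no window passed the test between sig2-2 and the other mutants. Of 113 genes, 0 passed (0%) by limma with the replicate number as a block and Benjamini-Hochberg adjustment, against 7 (6.19%) at an unadjusted p under 0.05. Of 259 windows, 0 passed, against 16 (6.18%) unadjusted. Without the block the counts were also 0 and 0. The median difference over all genes was 0.00 on the log2 scale. In all 4 replicate numbers 19 of the 113 genes were higher in membrane and 23 lower, beside 19 and 29 in stroma. Each gene or window has 1 fitted spread for both fractions, so the membrane test also used the spread of the stroma libraries, and the stroma test that of the membrane libraries. The counts of calls in the 2 fractions are therefore not a test of a difference between them. The lowest p-values belonged to genes of the small single-copy region, taken here as the stretch between both copies of the inverted repeat, positions 109084 to 129565. Those bounds are the outermost mirrored genes of equal length. The repeat can run past them, so the edges of the region, the ycf1 entry ArthCp070 among them, may be repeat sequence. The NADH dehydrogenase subunit gene ndhH (ArthCp080) had relative coverage of 0.967, 0.963, 0.942 and 0.955 in sig2-2, against 1.04, 1.05, 1.03 and 1.07 in chl27 and 1.04, 0.979, 1.05 and 1.04 in chlm. All 4 libraries of sig2-2 lay below all 8 others, the only gene of 113 (0.885%) with groups that do not overlap in membrane, and the fitted difference was -0.11 ± 0.04 (SE; adjusted p = 0.399, limma). With number 2 left out ndhH was the 1 gene called. For the shorter ycf1 entry, ArthCp070, the difference was -0.10 ± 0.03 (adjusted p = 0.399), and for psaC, an iron-sulphur subunit of photosystem I, -0.09 ± 0.03 (adjusted p = 0.425).

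In the stroma fraction sig2-2 differed from the other mutants over much of the genome, and tRNA genes and rRNA genes stood on the higher side while genes of the small single-copy region stood on the lower. By limma with the block, 47 of 113 genes passed (41.6%), 23 higher (20.4%) and 24 lower (21.2%), and 57 (50.4%) at an unadjusted p under 0.05. Of 259 windows, 85 passed (32.8%), 25 higher (9.65%) and 60 lower (23.2%), and 115 (44.4%) unadjusted. When libraries were scaled to the single-copy regions the split of windows was 32 higher and 33 lower. These counts rest on the block: without it 5 genes (4.42%), all higher tRNA genes, and 0 windows passed. They also rest on single libraries, since 15 genes passed without sig2-2 stroma replicate 2, 25 without sig2-2 stroma replicate 3 and 28 without chl27 stroma replicate 1. With the score of uneven coverage in the model 20 genes passed, 10 higher and 10 lower, and 15 of them are among the 47. Of the windows 51 then passed, 30 higher and 21 lower. The spread behind all these stroma counts is shared with the membrane libraries. The fit took membrane and stroma libraries of the same genotype and number as independent, though their deviations were correlated. A fit of the stroma libraries alone was not among the alternatives.

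**Figure D2:**
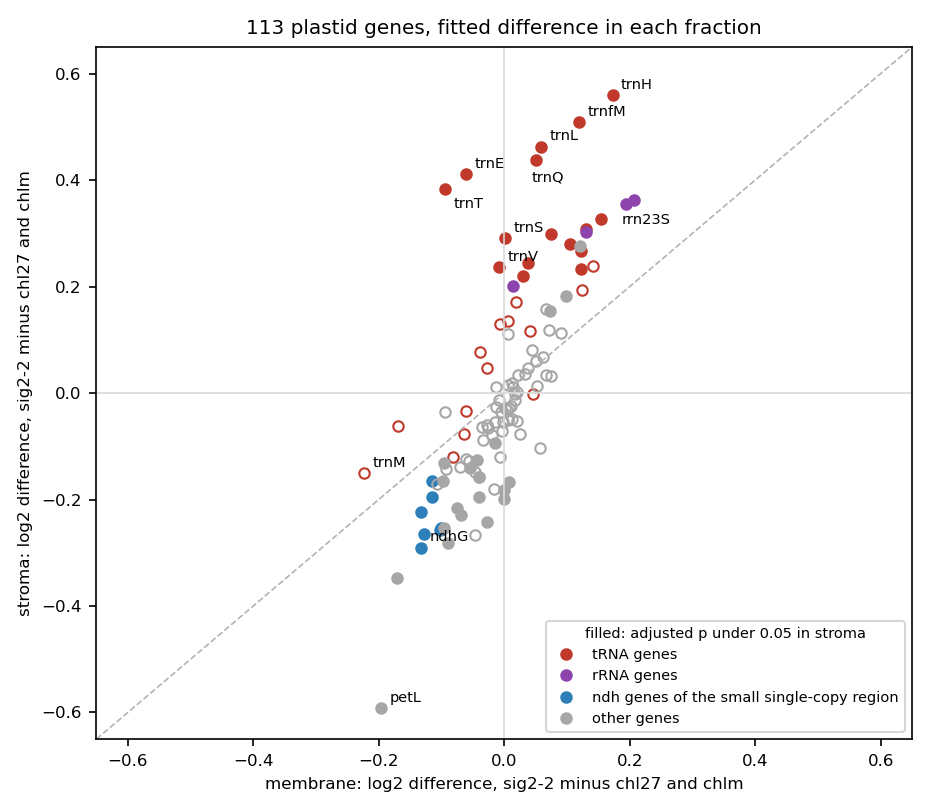
Fitted log2 difference of sig2-2 minus the mean of chl27 and chlm for 113 genes, membrane on the horizontal and stroma on the vertical axis, filled where the stroma difference passed the test and with a dashed line of equal change. The tRNA genes trnE, trnT, trnV, trnS, trnQ and trnL lie near 0 on the membrane axis and between 0.24 and 0.46 on the stroma axis.

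Of the 30 tRNA genes measured, 16 were higher in sig2-2 stroma and 0 lower, beside 20.4% higher and 21.2% lower of all 113 genes. Their median difference was 0.23 beside -0.03 over all genes. With the score as a covariate 8 of these 16 were called. The largest was that of trnH (ArthCt088), for the tRNA of histidine, at 0.56 ± 0.12 (SE; adjusted p = 0.00148), followed by the initiator tRNA gene trnfM (ArthCt099) at 0.51 ± 0.09 (adjusted p = 0.000731). Relative coverage of trnH was low everywhere, with 0.398, 0.584, 0.508 and 0.219 in sig2-2 stroma against 0.292, 0.638, 0.343 and 0.17 in chl27 and 0.303, 0.273 and 0.151 in chlm replicates 2, 3 and 4. Its groups overlap, and in each replicate number sig2-2 stood above the mean of the others, which in number 1 is chl27 alone. The gene begins at position 4, by the end of the linear map. trnfM read 1.71, 2.33, 1.69 and 1.11 in sig2-2 stroma, 1.16, 1.89, 1.01 and 0.923 in chl27, while chlm had 1.52, 0.989 and 0.945. Here too the order held in all 4 numbers while the groups overlap. Over all 113 genes 19 were higher and 29 lower in stroma in all 4 numbers, whether called or not. Of the 47 genes called in stroma, 35 went the same way in all 4. Genes called in stroma, here and below, were called by this same contrast, so their agreement over numbers is no separate evidence.

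For trnQ (ArthCt090, positions 6616 to 6687), the gene of a tRNA for glutamine, stroma coverage was 1.35, 1.48, 1.25 and 1.09 in sig2-2, 0.99, 1.32, 0.896 and 0.867 in chl27, with 1.05, 0.85 and 0.768 in chlm. In all 4 numbers sig2-2 was the higher, by 0.33 to 0.51 on the log2 scale. The fitted difference was 0.44 ± 0.05 (adjusted p = 3.44e-05), the lowest p of any gene in stroma. In membrane trnQ read 1.40, 1.44, 1.20 and 1.26 in sig2-2 against 1.29, 1.35, 1.27 and 1.07 in chl27 and 1.38, 1.50, 1.20 and 1.19 in chlm, a difference of 0.05 with a 95% interval from -0.06 to 0.16.

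For the leucine tRNA gene trnL (Arthct122, positions 114270 to 114349), which lies in the small single-copy region, stroma coverage was 1.43, 1.72, 1.47 and 1.14 in sig2-2, 1.22, 1.43, 1.13 and 0.949 in chl27, with 1.09, 0.978 and 0.677 in chlm. The difference was 0.46 ± 0.07 (adjusted p = 0.000160), in a region whose protein genes were lower. For trnT (ArthCt098, positions 31369 to 31440), of a threonine tRNA, the 4 stroma libraries of sig2-2 read 1.14, 1.17, 1.09 and 1.20, all above the 0.959, 1.03, 0.862 and 0.917 of chl27 and the 0.895, 0.822 and 0.733 of chlm. Only trnT and trnV, 2 of 113 genes (1.77%), had stroma libraries that do not overlap between the groups. The fitted difference of trnT was 0.38 ± 0.08 (adjusted p = 0.00229). For the serine tRNA gene trnS (ArthCt117) it was 0.29 ± 0.06 (adjusted p = 0.00135), with means of 1.21 ± 0.096 (SD, n = 4) in sig2-2, 1.04 ± 0.098 (SD, n = 4) in chl27 and 0.940 ± 0.13 (SD, n = 3) in chlm.

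These stroma calls of trnH, trnfM, trnQ, trnL, trnT and trnS, like those of trnE and trnV, held whichever of the 23 libraries was left out. With the score as a covariate the call of trnE was lost, and the other 7 were called with differences of 0.31 to 0.46. The 5 genes called without the block were trnQ, trnT, trnS, trnV and trnL. Against chl27 alone 29 genes passed and against chlm alone 39, with 24 in both, 11 of them tRNA genes.

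**Figure D3:**
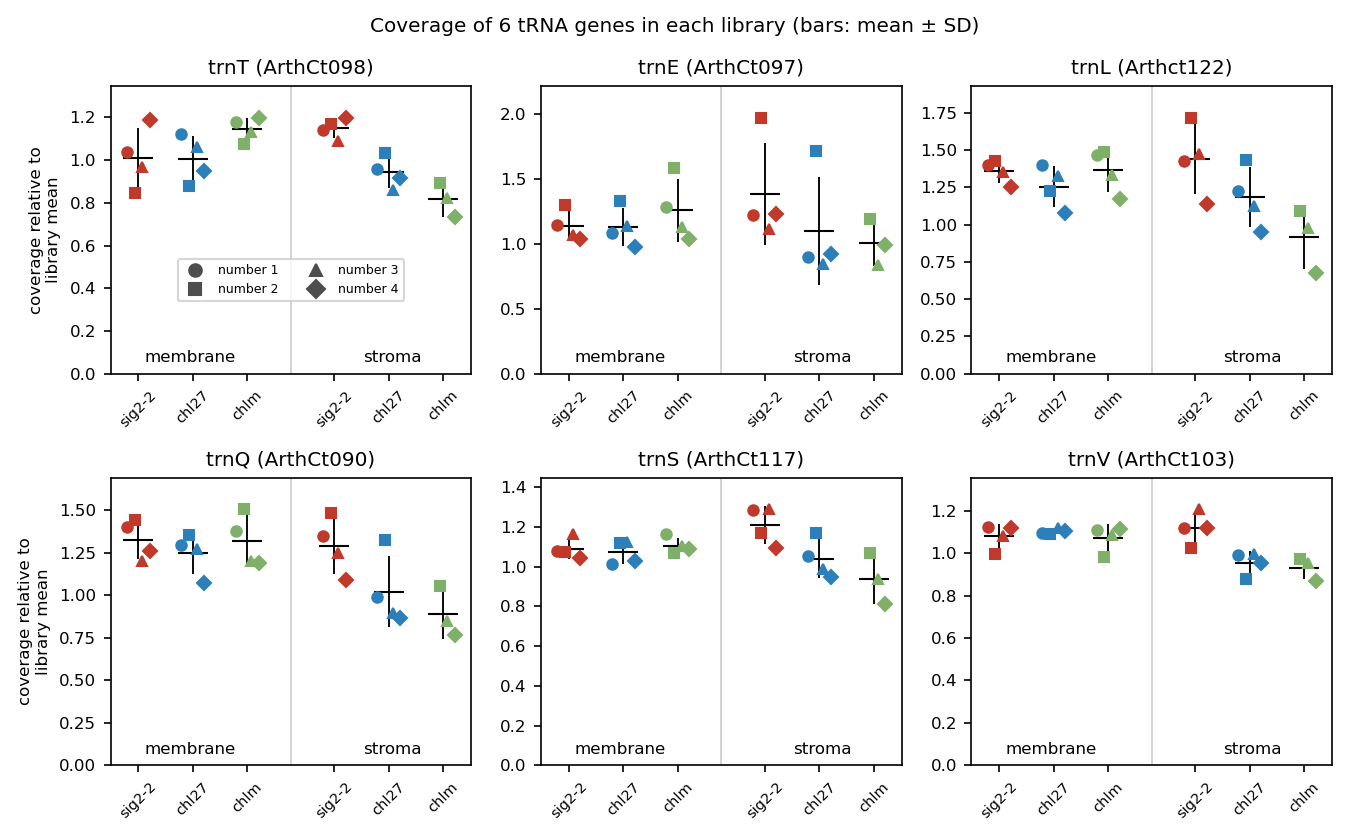
Relative coverage of 6 tRNA genes in each library, by mutant within membrane and within stroma, with symbols for the replicate number and bars for mean ± SD. In stroma the sig2-2 libraries of trnT (1.09 to 1.20) and trnV (1.03 to 1.21) lie above all libraries of chl27 and chlm, while in membrane the groups overlap in all 6 panels.

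The genes reported to depend on sigma factor 2 are trnD, trnY and trnE, which form a cluster, trnV, trnM and psaJ. Of these 6, 4 were higher in sig2-2 stroma and 0 lower, with a median of 0.23, while 12 of the 25 tRNA genes outside the list were higher with the same median of 0.23. In membrane 0 of the 6 passed, with a median of -0.02. trnE (ArthCt097, positions 30466 to 30538) read 1.22, 1.97, 1.12 and 1.23 in sig2-2 stroma, 0.896, 1.72, 0.847 and 0.923 in chl27, while chlm had 1.19, 0.841 and 0.994. Within each number sig2-2 was higher by 0.36 to 0.46 on the log2 scale, and the fitted difference was 0.41 ± 0.10 (adjusted p = 0.00415). With the score as a covariate it was 0.23 ± 0.09 and did not pass (adjusted p = 0.0617, limma). Number 2 stands far above the other numbers for both sig2-2 and chl27. In membrane trnE read 1.14, 1.30, 1.07 and 1.04 in sig2-2, 1.09, 1.33, 1.14 and 0.975 in chl27, while chlm had 1.28, 1.59, 1.13 and 1.04, a difference of -0.06 with a 95% interval from -0.26 to 0.14.

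trnV (ArthCt103, positions 51199 to 51871, with an intron) is the gene of a valine tRNA. Its stroma libraries read 1.12, 1.03, 1.21 and 1.12 in sig2-2, 0.994, 0.881, 0.998 and 0.953 in chl27, while chlm had 0.973, 0.955 and 0.870. The fitted difference was 0.24 ± 0.04 (adjusted p = 0.000731). In membrane it was -0.01 with an interval from -0.10 to 0.08. trnD (ArthCt095) differed in stroma by 0.27 ± 0.10 (adjusted p = 0.0448) and trnY (ArthCt096) by 0.22 ± 0.08 (adjusted p = 0.0290). The call of trnD was lost without any single one of 13 of the 23 libraries, and that of trnY without any single one of 7, falling to 0.15 without sig2-2 stroma replicate 2. With the score as a covariate trnD had 0.10 and trnY 0.06, and neither passed (adjusted p = 0.466 and 0.453, limma).

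trnM (ArthCt104), for the tRNA of methionine in elongation, and psaJ (ArthCp042), a small subunit of photosystem I, did not pass. In stroma trnM read 0.425, 0.412, 0.645 and 0.992 in sig2-2, 0.592, 0.466, 0.707 and 0.892 in chl27, while chlm had 0.562, 0.691 and 0.723. It was lower in numbers 1, 2 and 3 and higher in number 4, with a fitted difference of -0.15 ± 0.11 (adjusted p = 0.282). In membrane trnM was lower in all 4 numbers, at -0.22 ± 0.11 (adjusted p = 0.629). psaJ differed by -0.06 ± 0.07 in stroma (adjusted p = 0.440) and by -0.04 ± 0.07 in membrane (adjusted p = 0.885).

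**Figure D4:**
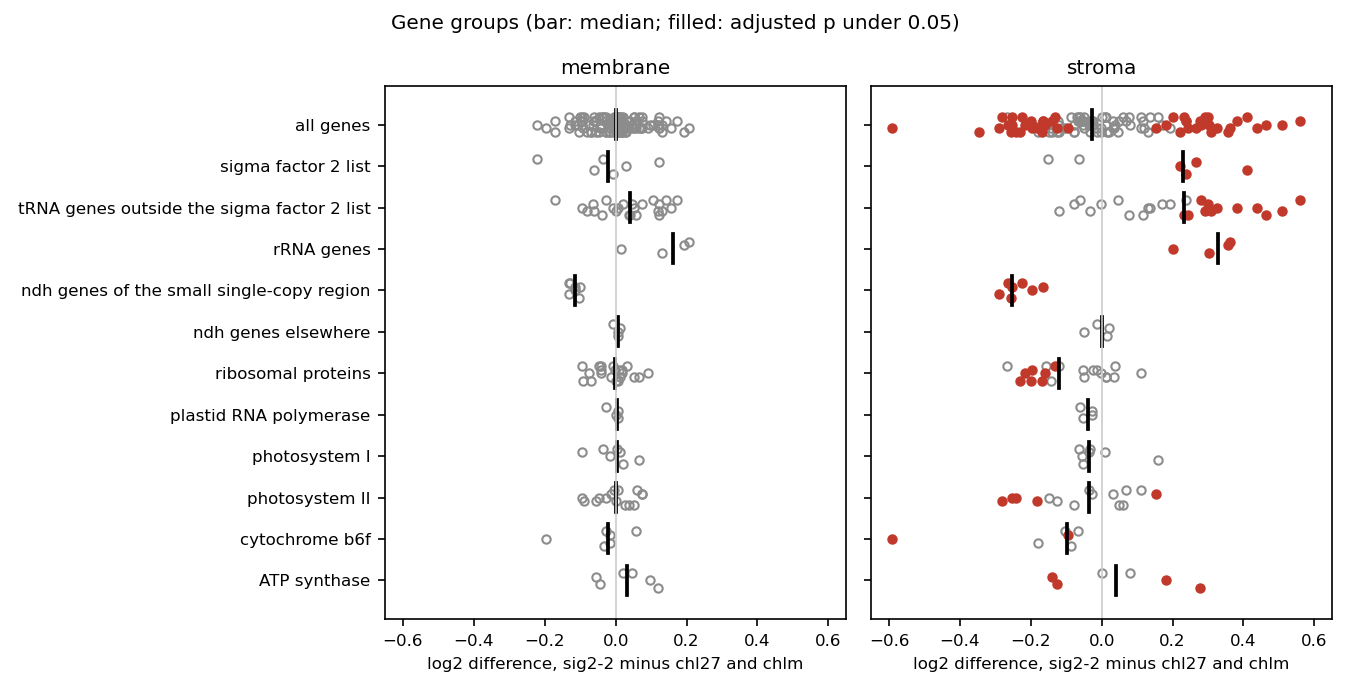
Fitted log2 difference of each gene by group, membrane on the left and stroma on the right, with bars for the group's median and filled points for genes that passed the test. In stroma the medians are 0.23 for the sigma factor 2 list, 0.23 for the other tRNA genes, 0.33 for rRNA genes and -0.25 for the ndh genes of the small single-copy region, and no point is filled in membrane.

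All 4 rRNA genes tested were higher in sig2-2 stroma, with a median of 0.33, and none of them passed with the score as a covariate, where they had 0.04 to 0.11 (adjusted p of 0.210 or more, limma). The score and the operon share their coverage. The gene of the large subunit RNA, rrn23S (ArthCr087), read 1.26, 2.05, 1.24 and 0.792 in sig2-2, 0.886, 1.86, 0.858 and 0.739 in chl27, with 1.15, 0.893 and 0.878 in chlm. The difference was 0.36 ± 0.11 (adjusted p = 0.0223), and rrn16S (ArthCr086) of the small subunit had 0.36 ± 0.12 (adjusted p = 0.0275). Within numbers 1, 2 and 3 rrn23S was higher by 0.51, 0.49 and 0.51, and in number 4 it differed by -0.02. rrn4.5S (ArthCt109) differed by 0.30 ± 0.09 (adjusted p = 0.0124) and ArthCr091, an rRNA gene without a symbol, by 0.20 ± 0.07 (adjusted p = 0.0346). trnI (ArthCt107), inside the operon, passed with 0.23 ± 0.09 (adjusted p = 0.0448), and its neighbour trnA (ArthCt108) did not, with 0.24 ± 0.10 (adjusted p = 0.0620). The call of trnI was lost without any single one of 16 of the 23 libraries and with the covariate, where it had 0.01 (adjusted p = 0.918, limma). Those of rrn16S and ArthCr091 were lost without any single one of 7 libraries, that of rrn23S without any single one of 4 and that of rrn4.5S without sig2-2 stroma replicate 2 or 3. Without sig2-2 stroma replicate 2 rrn16S fell to 0.24. The 3 called windows with the largest rise all lay in rrn23S and rrn16S, led by positions 106501 to 107000 with 0.40 ± 0.12 (adjusted p = 0.0217).

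The same operon was tested as 1 value per library, its coverage over that of the single-copy regions. In stroma sig2-2 had 1.46 ± 0.68 (SD, n = 4), chl27 had 1.17 ± 0.67 (SD, n = 4) and chlm had 1.03 ± 0.18 (SD, n = 3). The log2 difference of 0.37 did not pass an exact two-sided permutation test over libraries (p = 0.345), nor within replicate numbers (0.40, exact p = 0.130, where 0.0185 was the smallest possible). In membrane the values were 1.35 ± 0.52, 1.09 ± 0.36 and 1.22 ± 0.49 (SD, n = 4 each), a log2 difference of 0.21 with an exact p of 0.527. With labels permuted within replicate numbers the membrane difference of 0.21 had an exact p of 0.0247, sig2-2 being the highest of the 3 mutants in all 4 numbers. Within numbers 1, 2, 3 and 4 the log2 difference was 0.23, 0.23, 0.30 and 0.08 in membrane and 0.56, 0.56, 0.52 and -0.05 in stroma. The log2 membrane to stroma ratio of the operon differed by -0.14 (exact permutation p = 0.482).

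The 7 ndh genes of the small single-copy region, which encode subunits of the NADH dehydrogenase-like complex of the thylakoid, were all lower in sig2-2 stroma, with a median of -0.25. The 4 ndh genes elsewhere had a median of 0.00 and 0 calls, ndhB among them with 0.02 ± 0.03 (adjusted p = 0.641). This split of the ndh genes by region was made after seeing the values. ndhG (ArthCp077) read 0.816, 0.632, 0.851 and 1.06 in sig2-2 stroma, 1.07, 0.76, 1.10 and 1.13 in chl27, while chlm had 0.966, 1.05 and 1.05. Its difference was -0.29 ± 0.07 (adjusted p = 0.00543), and those of ndhF, ndhI and ndhD were -0.26, -0.26 and -0.25 with adjusted p-values of 0.00595, 0.00570 and 0.00543. In number 4 these differences were near 0, from -0.09 to -0.01. Without sig2-2 stroma replicate 2 the calls of ndhF, ndhG, ndhI and ndhD were lost, while that of ndhH, at -0.16 ± 0.04 (adjusted p = 0.00415), held whichever library was left out. With the score as a covariate ndhF, ndhG and ndhH were called, at -0.10, -0.12 and -0.13, while ndhD and ndhI were not, at -0.13 each (adjusted p = 0.0718 and 0.0905, limma). In membrane the same 7 genes had a median of -0.12, and 0 passed.

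Other genes of the region, with its edges as set here, were lower too. ccsA (ArthCp073), a cytochrome c assembly gene, was lower in stroma by -0.35 ± 0.11 (adjusted p = 0.0235), and the ycf1 entry ArthCp070 by -0.17 ± 0.03 (adjusted p = 0.000793). The call of ccsA was lost without any single one of 5 libraries, falling to -0.23 without sig2-2 stroma replicate 2, and with the score as a covariate, at -0.08 (adjusted p = 0.401, limma). That of ycf1 held in all these cases. psaC, between ndh genes, did not pass, with -0.04 ± 0.03 (adjusted p = 0.386). Of the 41 windows in the small single-copy region 27 were lower and 0 higher, with a median of -0.21, against 27 lower and 13 higher of 169 in the large single-copy region. The 3 called windows with the largest fall were all there, at -0.52 ± 0.15 for positions 123501 to 124000 overlapping rps15 and ycf1, and at -0.42 for windows in ccsA and ndhG. As a ratio of mean coverage, the small over the large single-copy region was 0.857, 0.750, 0.901 and 0.969 in sig2-2 stroma, and the mean of the other mutants of the same number was 1.02, 0.888, 1.03 and 0.996. In number 1 that mean is chl27 alone. sig2-2 was the lowest of the mutants in 3 of 4 numbers in stroma and in 4 of 4 in membrane, where it read 0.944, 0.889, 0.969 and 1.01 against 1.02, 0.965, 1.05 and 1.05.

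Among the 79 protein genes 24 were lower in stroma and 3 higher, beside 24 lower (21.2%) and 23 higher (20.4%) of all 113 genes. The counts of smaller gene groups below stand beside those same shares. petL (ArthCp040), a small subunit of the cytochrome b6f complex, had the largest fall of any gene, at -0.59 ± 0.21 (adjusted p = 0.0334). It read 0.448, 0.215, 0.764 and 0.932 in sig2-2 stroma, 0.817, 0.299, 1.04 and 0.996 in chl27, while chlm had 0.656, 0.985 and 0.909, so number 2 is low for both sig2-2 and chl27, and in number 4 it differed by -0.03. Its call was lost without any single one of 7 libraries, with -0.34 (adjusted p = 0.230) without sig2-2 stroma replicate 2, and with the score as a covariate, at -0.12 (adjusted p = 0.562, limma). The photosystem II genes psbL and psbT were lower by -0.28 ± 0.09 and -0.25 ± 0.08 (adjusted p = 0.0223 each), and of 15 photosystem II genes 4 were lower and 1 higher. Without sig2-2 stroma replicate 2 psbL and psbT had -0.19 and -0.14, and with the score as a covariate -0.07 and -0.09, and in neither case did they pass (adjusted p from 0.176 to 0.359, limma). The call of psbL was lost without any single one of 5 libraries and that of psbT without any single one of 3. Of 21 ribosomal protein genes 7 were lower and 0 higher, with a median of -0.12. When libraries were scaled to the single-copy regions 5 were lower and 1 higher. None of the 4 genes of the plastid-encoded polymerase passed, rpoB among them with -0.03 ± 0.03 (adjusted p = 0.413), and none of 7 photosystem I genes passed, psaA having 0.01 ± 0.04 (adjusted p = 0.836). The remaining genes chosen for description did not pass in stroma either: psbA, of the photosystem II reaction centre, had 0.11 ± 0.05 (adjusted p = 0.0650), rbcL, of the large Rubisco subunit, 0.12 ± 0.05 (adjusted p = 0.0744), and atpB, accD, clpP, psbB and ycf2 lay between -0.08 and 0.08.

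Over the 113 genes the stroma difference correlated with the difference between Col0 libraries of number 2 and number 4 at r = 0.81, the membrane difference at 0.73 and the difference of ratios at -0.70. These are descriptions across genes that share reads and neighbours, and the Col0 libraries stand in none of the contrasts. Of the 20 genes called in stroma with the score as a covariate, 15 are among the 47, trnH, trnQ, trnT, trnS, trnfM, trnV, trnL, ndhF, ndhG and ndhH among them.

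The log2 ratio of membrane to stroma coverage was lower in sig2-2 for 6 of 113 genes (5.31%) and higher for 0, and all 6 are tRNA genes, against 15 genes (13.3%) at an unadjusted p under 0.05. They were trnT at -0.48 ± 0.12 (SE; adjusted p = 0.0192), trnE at -0.47 ± 0.13 (adjusted p = 0.0478), trnL (Arthct122) at -0.40 ± 0.09 (adjusted p = 0.0192), trnQ at -0.39 ± 0.08 (adjusted p = 0.00907), trnS (ArthCt117) at -0.29 ± 0.08 (adjusted p = 0.0478) and trnV (ArthCt103) at -0.25 ± 0.06 (adjusted p = 0.0192). All 6 were lower in 4 of 4 replicate numbers, and for each the stroma coverage differed while the membrane difference lay between -0.09 and 0.06. Over all 113 genes 15 were lower and 20 higher in the ratio in all 4 numbers. The 6 were called by this same ratio in these libraries, so their agreement over numbers is no separate evidence. trnfM, at -0.39 ± 0.12 (adjusted p = 0.0948), and trnH, at -0.39 ± 0.16 (adjusted p = 0.279), did not pass, though both were lower in 4 of 4 numbers. Of the sigma factor 2 list 2 of 6 passed, with a median of -0.17, and of the other 25 tRNA genes 4, with a median of -0.14, beside 0.03 over all genes. Of 259 windows 1 passed (0.386%), against 13 (5.02%) unadjusted: positions 51501 to 52000 in trnV, with -0.28 ± 0.05 (adjusted p = 0.00748).

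The main fit holds the replicate number as a block but does not pair the membrane and stroma libraries of 1 genotype and number. Without the replicate block 0 genes and 0 windows passed. When the ratio was formed within each pair of the same genotype and number 2 genes passed with the block and 0 without it. Against chl27 alone 0 genes passed, and against chlm alone 6, of which 5 are among the 6 above. The call of trnQ held whichever of the 23 libraries was left out, and those of trnV, trnT, trnL, trnS and trnE held in 19, 18, 18, 6 and 3 of the 23 cases. Only 1 gene passed without sig2-2 membrane replicate 1, 2 or 3 or sig2-2 stroma replicate 3. Without number 2 all 6 remained, and with the score of uneven coverage as a covariate all 6 remained with 1 more, a trnG gene.

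For trnQ, trnL and trnE the stroma difference was highest next to the gene's centre. In bins of 100 bp by distance from the gene's centre, a view chosen after the calls were known, trnQ reached 0.40 ± 0.12 (SD, n = 4 numbers) next to its centre in stroma and 0.06 ± 0.10 in membrane. On its far side, over 700 bp after the centre, the stroma mean was -0.27. Around trnL (Arthct122) the stroma mean was 0.25 over the centre and -0.26 and -0.42 over 700 bp before and after it. trnE had its highest stroma bin, 0.40, at the centre, and trnT, which lies within 1000 bp of trnE, had a centre of 0.25 and its highest stroma bin, 0.39, 850 bp before it. At trnV the highest stroma bin, 0.51 ± 0.16, was 250 bp from the centre, inside the annotated gene. Outside that gene the bins at 750 and 850 bp were also higher, with 0.45 and 0.41 in stroma and 0.23 and 0.20 in membrane, in 4 of 4 numbers each. At trnS the highest stroma bin, 0.28, was 250 bp before the centre, off the gene, and membrane had 0.21 there. Past trnS the spread was wide, with -0.65 ± 1.57 in the last stroma bin.

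**Figure D5:**
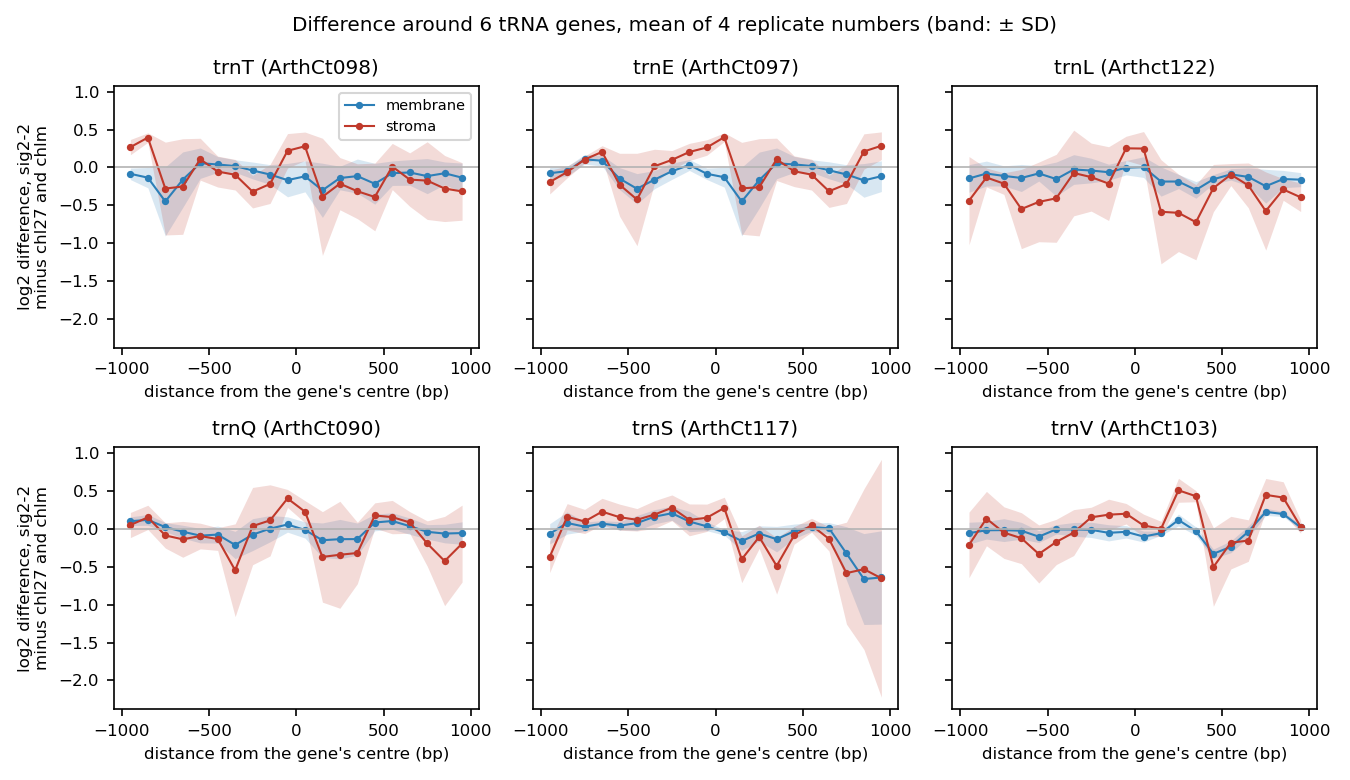
Log2 difference of sig2-2 minus chl27 and chlm within replicate number, in bins of 100 bp against distance from the centre of each of 6 tRNA genes, as the mean of 4 numbers with a band of ± SD. Stroma exceeds membrane at the centre of all 6 genes, by most at trnE, where the centre bins average 0.33 in stroma and -0.11 in membrane. The 6 genes were chosen for a lower membrane to stroma ratio in these libraries, so this order at the centre largely follows from the choice.

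The chlorophyll mutants were not distinguished from each other by the same model. Between chl27 and chlm 0 of 113 genes passed in membrane (0%), in stroma (0%) or in the ratio (0%), against 1 (0.885%), 6 (5.31%) and 8 (7.08%) at an unadjusted p under 0.05. For trnL (Arthct122) chl27 stood above chlm in stroma by 0.36 (adjusted p = 0.0510) and below it in the ratio by -0.48 (adjusted p = 0.0574), near the threshold. For trnQ the ratio of chl27 was below that of chlm by -0.25 (adjusted p = 0.396), in the same direction as sig2-2.

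A further set of 12 libraries of the series, from an experiment with 3 replicates in which sig2-2 stands against Col0, was set beside these values. There 3 genes of the sigma factor 2 list were lower in membrane, trnM by -0.79 ± 0.13 (SE), trnV by -0.70 ± 0.12 and trnY by -0.63 ± 0.11 (adjusted p = 0.00233 each, limma without a block), with 0.37, 0.08 and -0.04 in stroma and no call there. In the present comparison the membrane differences of trnM, trnV and trnY were -0.22, -0.01 and 0.03. The serine tRNA gene trnS (ArthCt117) was also lower in membrane there, by -0.61 ± 0.11 (adjusted p = 0.00273), against 0.00 here. The ratio was lower there for trnM by -1.16 ± 0.19 (adjusted p = 0.00404), for trnV by -0.77 ± 0.17 (adjusted p = 0.0261) and for trnY by -0.59 ± 0.15 (adjusted p = 0.0490), against -0.07, -0.25 and -0.19 here, of which that of trnV passed. Of the 6 genes called here in the ratio, 1 was called in the ratio there. For trnQ and trnT the ratio was 0.22 and 0.23 there (adjusted p = 0.846 each), against -0.39 and -0.48 here. Of the 47 genes called here in stroma, 28 had the same sign in stroma there and 0 were called. Both the reference genotype and the preparation of the material differ between these experiments, and the difference between them was not tested.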

How the data were processed

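The deposited values are sequencing coverage per base of the plastid genome, as whole numbers in 1 column per library, with positions labelled in the authors' table. Per the submitters' processing notes, Trim Galore 0.4.1, Bowtie2 2.2.8.9, bedtools 2.25.0 and the TAIR10 build were used, with no role stated. Duplicate removal and the placing of reads shared by both repeat copies are not given in the sources used here. Read length is not used here, so coverage has no counting interval.

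Positions were taken as row counts, since the authors' position labels run 1 lower. Coverage was averaged in 309 windows of 500 bp and in gene bodies of the 129 plastid entries of the TAIR10.1 gene table. Table and coverage gave 1 mirror axis for the inverted repeat, 238649. The repeat copies were bounded by the outermost mirrored genes of equal length, at 84337 to 109084 and 129565 to 154312. The 50 windows of the second copy, its 15 mirrored genes and the trans-spliced rps12 were left out, leaving 259 windows and 113 genes. ArthCr091, an rRNA gene of the second copy without an equal-length partner, stayed in. Overlapping and neighbouring genes share reads, and coverage carries no strand. Each library was divided by its mean and log2 taken. No pseudocount was needed.

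Differences were fitted in limma 3.58.1 (R 4.3.3) over 23 libraries with genotype by fraction groups and the replicate number as a block, as sig2-2 minus the average of chl27 and chlm, with Benjamini-Hochberg adjustment over all windows or genes and a threshold of 0.05. The block is part of the comparison as set. Correlations of deviations from group means exceeded 0.1 in 11 of 11 membrane and stroma pairs, in 10 of 10 pairs of genotypes within stroma and in 11 of 12 within membrane, where the lowest was 0.03, so within membrane not every pair deviated together. Among pairs of libraries of different numbers 67 of 198 also exceeded 0.1. The labels do not say that replicates are separate cultures, so p-values measure the spread between these samples. The operon was tested by exact two-sided permutation. The scripts were tested on simulated data. The noise simulated for limma was independent between libraries, so that test does not cover libraries that deviate together, as these do.

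The members, gene lists and tests were chosen with earlier results of these data known. Named genes are up to 8 called genes with the largest rise and 8 with the largest fall per contrast (the 3 lowest p where fewer than 3 passed), the sigma factor 2 list, the rRNA operon and 11 protein genes. A table column used for chlm stroma replicate 1 was left out, as it holds positions. The alternatives were other scalings, window sizes, gene lengths, single mutants, pairs, no block, and each library left out.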

Additional observations from a re-analysis of the deposited data

Results flagged for a closer look

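The difference between sig2-2 and the other mutants was flagged as unequal in the 2 fractions, by the test of membrane minus stroma, for trnT (-0.48), trnE (-0.47), trnL (Arthct122, -0.40), trnQ (-0.39), trnS (ArthCt117, -0.29), trnV (-0.25) and the window at positions 51501 to 52000 (-0.28). These are the ratio calls given above. Without the replicate block 0 genes and 0 windows passed in the ratio. Against chl27 alone 0 genes passed, and against chlm alone 0 windows.

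Of 100 groups of 4 libraries examined for a sample far from the other 3, 7 had one, where chance gives about 1 in 20. That count is near the chance share. Number 2 gave 6 of the 7, but these are not independent, since several are the same library, chl27 stroma replicate 2, seen through different genes. High in stroma were chl27 stroma replicate 2 with the operon at 2.17 times single-copy coverage, rrn23S at a relative coverage of 1.86, trnD at 2.34 and trnE at 1.72, and sig2-2 stroma replicate 2 with trnE at 1.97. Also of number 2, chlm membrane replicate 2 was low for ndhH, at 0.979. From number 4, sig2-2 membrane replicate 4 had a mean depth of 3825, above the other libraries of its group. With all libraries of number 2 left out, 1 gene was called in membrane, 42 in stroma and 6 in the ratio.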

How the results depend on the processing

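Without the replicate block stroma calls went to 5 genes and 0 windows, and ratio calls to 0 and 0. Ratios within pairs gave 0 genes and 0 windows with no block, and 2 and 0 with it. Against chl27 alone 29 genes and 21 windows passed in stroma and 0 genes in the ratio. Against chlm alone 45 windows passed in stroma and 0 in the ratio. With chl27 and chlm pooled 2 genes passed in the ratio. Genes of at least 200 bp gave 24 calls in stroma and 1 in the ratio. Windows of 200 bp gave 159 calls in stroma, and windows of 1000 bp 33 in stroma and 0 in the ratio. Scaling to the median window gave 1 window in membrane and 2 in the ratio, and scaling to the single-copy regions 3 in the ratio. With Col0 in the fit 2 windows passed in the ratio. Between chl27 and chlm 1 gene passed in stroma and 1 in the ratio, under median scaling and with Col0 in the fit alike.

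The following were chosen after seeing the data. The score of uneven coverage as a covariate gave 20 genes and 51 windows in stroma and 9 windows in the ratio. Without number 2, 1 gene passed in membrane and 2 windows in the ratio. Without number 4, 2 windows passed in membrane, 72 genes and 143 windows in stroma, and 3 genes and 0 windows in the ratio. The causes were not tested.

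Leaving out each library in turn gave 15 to 70 genes and 12 to 140 windows in stroma, 1 to 8 genes and 1 to 3 windows in the ratio, and 0 genes and 0 to 1 windows in membrane. Between chl27 and chlm it gave 0 genes in membrane and 0 to 1 in stroma and in the ratio. Stroma windows fell to 12, 21 and 28 without sig2-2 stroma replicates 2, 3 and 1, to 35 and 53 without chl27 stroma replicates 1 and 3 and to 42 without chlm stroma replicate 3, and reached 140 without chlm stroma replicate 4. The operon difference ran from -0.02 to 0.45 in membrane, 0.09 to 0.61 in stroma and -0.23 to -0.05 in the ratio, with exact permutation p-values of 0.0952 or more, as differences of means with no block, so that leaving out 1 library unbalances the numbers. Permuted within replicate number, the membrane value of 0.21 passed (exact p = 0.0247).

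For the 120 values of 40 named genes, 31 of them called, 4112 alternatives were computed: 217 lost a call, 32 gained one, and 131 changed the sign of a value that was not called. No called value changed sign. Mean depth was 113 or more in every window, and no interval from counts was computed.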
